A study of Mus musculus with 12 samples.

Results

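Bile acid handling in the ileum was followed through 7 genes: Slc10a2 for uptake, Fabp6 for binding, Slc51a and Slc51b for export, Nr1h4 for the bile acid receptor FXR, and Nr0b2 and Fgf15 for its response. The genes were chosen by symbol, and all 7 were found among the 54532 genes of both expression tables. The tables hold bulk RNA-seq of 12 mouse libraries in 4 groups of 3, given as FPKM, fragments scaled to gene length and library size. Small intestine crypts came from adult Wild type mice and from adult ieCtnnb1KO mice. Colon tumors came from APCmin/+ mice and from APCmin/+;ieCtnnb1KO mice at 5 months of age, so that both tumor groups carried the Apc mutation. No group was treated. The ieCtnnb1KO allele, called the knockout below, is a homozygous germline deletion of an intestinal enhancer of Ctnnb1 and is present in every cell of the mouse. Crypts were prepared from whole small intestines, and the share of ileum in each preparation was not given. The labels number the libraries of a group without naming mice, so p-values measure the spread between these libraries. Between 14457896 and 16156712 fragments per library were assigned to genes.

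Bile acids are secreted by the liver, help to absorb fat, and are recovered mainly in the terminal ileum. Enterocytes there take them up at the apical membrane, carry them bound to a cytosolic protein and release them at the basolateral membrane toward the portal blood. Inside the cell bile acids activate FXR, which induces binding and export genes and the hormone FGF15, by which the ileum restrains bile acid synthesis in the liver.

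Ctnnb1, the gene whose enhancer was deleted, was examined first as a check of the labels. Crypt libraries had 121, 134 and 123 FPKM for wild type and 102, 104 and 105 FPKM for the knockout. In tumors it was 299, 363 and 358 in the controls and 279, 248 and 250 with the knockout. Every knockout library was below every control library of its tissue. The colon marker Hoxb13 was at 0 in all 6 crypt libraries and between 70.1 and 128 FPKM in the tumors. Hoxd13, a marker of the distal colon, was also at 0 in crypts, but tumor libraries split, with 0.0746, 65.7 and 63.0 FPKM in controls and 2.85, 0.176 and 42.5 with the knockout. Tumor replicate 3 of both genotypes expressed Xist at 114 and 61.4 FPKM, whereas Y-linked genes were expressed in the remaining 10, so each tumor group held 1 library without them.

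In crypts no bile acid gene differed between genotypes after adjustment. For 5 of the 6 tested genes the wild-type libraries lay farther apart than the knockout libraries, the exception being Nr1h4, with a highest over lowest of 1.38 in wild type and 1.43 in the knockout. Of the 6 genes with a mean of at least 0.5 FPKM, limma called 0 at an adjusted p under 0.05, as it did for all genes (0% of 14176). At an unadjusted p under 0.05 the count was 0 of 6, beside 829 of all tested genes (5.85%). With voom on recovered fragments it was 1 of 6, Nr1h4, beside 742 genes, and again none passed adjustment. The groups did not overlap for 1 of 6, again Nr1h4, beside 11.9% of all tested genes. Fgf15 reached the minimum mean only through wild type, with group means of 1.12 and 0.346 FPKM, so the filter favoured a negative sign for it, and no count over the tested genes is read as a shared direction. The log2 fold changes of the other 5 ran from -0.94 to -0.05, beside a median of 0.01 over all tested genes. Leaving out wild-type replicate 2 or 3 turned 3 of these 5 positive, and leaving out wild-type replicate 1 turned none. Fabp6 alone was positive after quantile normalization and Slc51a alone without knockout replicate 2. Wild-type replicate 1 was the lowest library for 5 of the 6 genes, and the highest library was always wild-type replicate 2 or 3. Without wild-type replicate 1 all 6 genes had lower values in every knockout library and an unadjusted p under 0.05, beside 28.1% and 9.46% of all genes. The lowest limma adjusted p among the 6 was 0.422. Fgf15 is among them only because the filter was passed through wild type, so its part in both counts is not a result. Wild-type replicate 1 was lowest for most of these genes, so leaving it out lowers their fold changes by construction. Without knockout replicate 2 the count at an unadjusted p under 0.05 was 1, beside 4.87% of all genes.

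**Figure D1:**
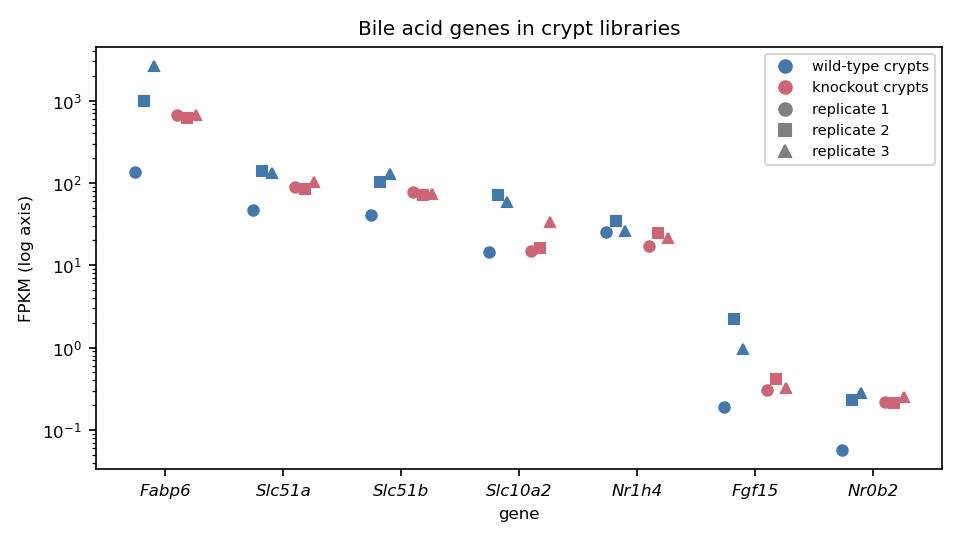
FPKM of the 7 bile acid genes in each crypt library, on a log axis, with colour for genotype and symbol shape for replicate number. The 3 knockout libraries lie close together for Fabp6, between 617 and 678 FPKM, while the wild-type libraries run from 135 to 2619.

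Slc10a2 encodes ASBT, the sodium-dependent transporter that takes up bile acids at the apical membrane. It lies on the minus strand at chr8:5083219-5105351 in GRCm38 and is listed as ENSMUSG00000023073. Crypts held Slc10a2 at 14.6, 70.6 and 58.4 FPKM in wild type and at 15.1, 16.3 and 33.8 FPKM in the knockout. Wild-type replicates 2 and 3 were above all other libraries, but replicate 1 was below every knockout library, so the groups overlapped. Group means were 47.9 ± 29.4 and 21.8 ± 10.5 FPKM (SD, n = 3 each). The log2 fold change, knockout minus wild type on log2(FPKM + 0.5), was -0.94 (95% interval -2.37 to 0.50; limma p = 0.166, adjusted p = 0.896; exact two-sided permutation p = 0.4). That permutation test cannot give a p below 0.1 with 3 libraries against 3. Without wild-type replicate 1 the log2 fold change was -1.64, and without wild-type replicate 2 it was -0.52. The residual SD of Slc10a2 within groups, 0.97 on the log2 scale, was larger than that of 97.3% of tested genes.

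Fabp6 encodes the ileal bile acid binding protein, which holds bile acids in the enterocyte cytosol. It lies on the minus strand at chr11:43596049-43601540 and is listed as ENSMUSG00000020405. Wild-type crypts had 135, 991 and 2619 FPKM of Fabp6, and knockout crypts had 678, 617 and 661 FPKM. The wild-type libraries included both the lowest and the highest value, and all 3 knockout libraries fell between them. The highest value was 19.3 times the lowest among wild-type libraries and 1.10 times among knockout libraries. The lowest rested on 1004 fragments (95% exact Poisson interval 127 to 144 FPKM) and the highest on 19662 fragments (2582 to 2655 FPKM), so the difference exceeded counting error. Means were 1248 ± 1261 FPKM in wild type and 652 ± 31.4 FPKM in the knockout (SD, n = 3 each). On the log2 scale the difference was -0.12 (95% interval -2.39 to 2.16; limma p = 0.907, adjusted p = 0.996; exact permutation p = 1). That interval reaches from 0.191-fold to 4.46-fold, so both a decrease and an increase within those bounds are compatible with these libraries. The residual SD of Fabp6 was 1.54, larger than that of 99.6% of tested genes, and it ranked 15th among the 7232 genes with a mean of at least 5 FPKM. Without wild-type replicate 1 the residual SD was 0.575 and the log2 fold change -1.31, while without wild-type replicate 3 the log2 fold change was 0.83 and without wild-type replicate 2 it was 0.13. Fewer cells of a type and less RNA per cell cannot be told apart in these bulk samples.

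The 300 bases around the start of Fabp6, Slc51a and Slc51b are shown because these genes varied together across the crypt libraries. They come from RefSeq on GRCm38.p6 and span 250 bases before to 50 after the RefSeq start of each gene, all read on the minus strand, at chr11:43601513-43601812, chr16:32487830-32488129 and chr9:65422724-65423023. Capitals mark matches to the inverted repeat IR-1 to which FXR is known to bind (AGGTCA, any base, TGACCT, with up to 2 mismatches) or, where that is missing, to a single exact AGGTCA on either strand.
Fabp6: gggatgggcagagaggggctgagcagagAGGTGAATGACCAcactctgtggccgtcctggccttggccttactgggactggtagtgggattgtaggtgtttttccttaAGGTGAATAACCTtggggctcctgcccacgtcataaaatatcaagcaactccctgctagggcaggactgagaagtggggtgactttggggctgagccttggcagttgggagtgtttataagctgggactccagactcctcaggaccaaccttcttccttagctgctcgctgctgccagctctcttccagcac
Slc51a: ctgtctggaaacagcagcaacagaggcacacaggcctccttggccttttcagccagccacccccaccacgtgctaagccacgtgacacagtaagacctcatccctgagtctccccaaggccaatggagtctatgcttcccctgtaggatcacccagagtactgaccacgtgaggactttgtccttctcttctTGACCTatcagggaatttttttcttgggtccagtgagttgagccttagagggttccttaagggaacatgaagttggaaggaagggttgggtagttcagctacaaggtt
Slc51b: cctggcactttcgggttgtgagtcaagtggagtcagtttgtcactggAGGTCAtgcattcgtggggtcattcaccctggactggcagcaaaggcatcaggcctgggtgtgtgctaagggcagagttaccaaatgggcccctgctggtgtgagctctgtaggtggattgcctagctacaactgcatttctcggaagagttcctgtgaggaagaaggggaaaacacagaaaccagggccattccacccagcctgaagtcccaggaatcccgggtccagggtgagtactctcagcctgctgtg

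Fabp6 held 2 matches to IR-1, starting 222 and 142 bases before its start, each with 2 mismatches. Of the 32851 promoter windows of the genome, 374 (1.14%) held such a match, and Fabp6 was the only 1 of the 6 bile acid genes with a window. A single exact AGGTCA was in the windows of Slc51a, Slc51b and Nr1h4 and in 16.3% of all windows. The Nr1h4 window, chr10:89506609-89506908, lies inside the gene interval given below, at a RefSeq start other than the outer end of that interval. A single AGGTCA can lie inside an IR-1 match, and 0.578% of windows held both. A match describes letters in a window of 300 bases and not a site of binding. Fgf15 had no entry among the promoter sequences.

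Slc51a and Slc51b encode OST alpha and OST beta, the subunits of the transporter that releases bile acids at the basolateral membrane. Slc51a lies at chr16:32474504-32487879 (ENSMUSG00000035699) and Slc51b at chr9:65412714-65422955 (ENSMUSG00000053862), both on the minus strand. In crypts Slc51a was at 46.9, 139 and 130 FPKM in wild type and at 88.3, 83.7 and 103 FPKM in the knockout. Slc51b was at 41.1, 103 and 130 FPKM in wild type and at 78.4, 70.5 and 73.1 FPKM in the knockout. For both subunits wild-type replicate 1 was lowest, the knockout libraries lay in the middle, and wild-type replicates 2 and 3 were highest. For Slc51a the log2 fold change was -0.05 (95% interval -1.0 to 0.90; limma p = 0.90, adjusted p = 0.995; exact permutation p = 1). That of Slc51b was -0.15 (95% interval -1.08 to 0.79; limma p = 0.721, adjusted p = 0.978; exact permutation p = 0.9). Neither difference exceeded the spread between libraries, and both signs turned positive without wild-type replicate 2 (0.22 and 0.01) or 3 (0.18 and 0.18). For Slc51a the sign also turned without knockout replicate 2, to 0.01. The ratio of the subunits lay between 1.0 and 1.41 in the 6 libraries, although each gene varied about as widely as the other, 2.95 and 3.16 times within wild type. Fabp6 divided by Slc51a, in contrast, ran from 2.89 in wild-type replicate 1 to 20.1 in wild-type replicate 3. Slc51a shares 567 exonic bases with the opposite-strand gene Pcyt1a, at a mean of 12.8 FPKM in crypts, and Slc51b shares 91 with Rasl12, at 0.636 FPKM. Whether counting used the strand was not given, so reads in the shared bases cannot be assigned.

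Nr1h4 encodes FXR, the nuclear receptor for bile acids. It lies on the minus strand at chr10:89454234-89533585 and is listed as ENSMUSG00000047638. Wild-type crypts had 25.2, 34.8 and 26.1 FPKM of Nr1h4, and knockout crypts had 17.3, 24.8 and 21.7 FPKM. The groups did not overlap, with the knockout lower, though their nearest values, 24.8 and 25.2, almost met. Means were 28.7 ± 5.33 and 21.2 ± 3.77 FPKM (SD, n = 3 each). The difference was -0.42 on the log2 scale (95% interval -0.86 to 0.01; limma p = 0.0559, adjusted p = 0.849; exact permutation p = 0.1). After rescaling of the libraries to the same total the groups overlapped. The spread of Nr1h4 was ordinary, with a residual SD of 0.25, larger than that of 58.9% of tested genes.

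Nr0b2 encodes SHP, a repressor that FXR induces, and Fgf15 encodes the hormone that travels from ileum to liver. Nr0b2 lies at chr4:133553376-133556536 (ENSMUSG00000037583) and Fgf15 at chr7:144896531-144900953 (ENSMUSG00000031073), both on the plus strand. Nr0b2 was close to absent from crypts, with 1, 4 and 5 fragments in wild type and 4 in each knockout library, and was not tested. Fgf15 was at 0.190, 2.2 and 0.960 FPKM in wild type, from 9, 103 and 46 fragments, and at 0.301, 0.410 and 0.326 FPKM in the knockout, from 15, 21 and 14 fragments. Wild-type replicates 2 and 3 were above the knockout libraries and replicate 1 was below them. The 95% exact Poisson interval of wild-type replicate 2, 1.80 to 2.67 FPKM, lay above that of replicate 1, 0.0869 to 0.361 FPKM. For Fgf15 the log2 fold change was -0.73 (95% interval -1.84 to 0.39), on a scale that understates changes at such low levels. Without wild-type replicate 1 it was -1.23. The gene passed the filter only because wild-type replicates 2 and 3 were high, the other 4 libraries being under 0.5 FPKM. Both values are therefore descriptions. With no filter limma gave p = 0.181 (adjusted p = 0.864), and the exact permutation p was 0.4. Fgf15 shares 761 exonic bases with the antisense gene Gm26793 and 26 with Gm39119, which had means of 0.0427 and 0.103 FPKM in crypts.

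By mean FPKM in wild-type crypts the order was Fabp6 at 1248, Slc51a at 105, Slc51b at 91.2, Slc10a2 at 47.9, Nr1h4 at 28.7, Fgf15 at 1.12 and Nr0b2 at 0.190. Fabp6 and Slc51a did not differ beyond their spread in wild type, nor did Slc51a and Slc51b, Slc51b and Slc10a2, Slc10a2 and Nr1h4, or Fgf15 and Nr0b2, whose wild-type libraries overlapped. Within each of the 6 libraries, however, Fabp6 was above Slc51a, Slc51a above Slc51b (though nearly equal in wild-type replicate 3), Slc51b above Slc10a2, and Fgf15 above Nr0b2. The 7 genes together took 0.0389%, 0.131% and 0.202% of wild-type fragments and 0.0794%, 0.0783% and 0.0852% of knockout fragments.

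**Figure D2:**
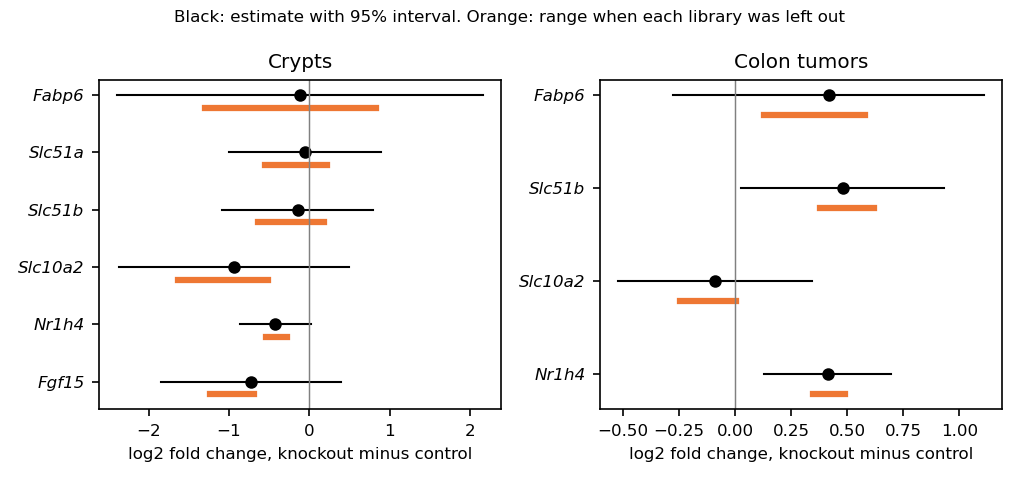
Log2 fold change, knockout minus control on log2(FPKM + 0.5), of the genes tested in crypts (left) and colon tumors (right). Points are limma estimates over 3 libraries against 3, black lines their 95% intervals, and orange bars the range of the estimate when each library was left out in turn. In crypts the interval of each gene includes 0, and for Fabp6 the orange bar runs from -1.31 to 0.83.

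The spread among crypt libraries was compared with that of other genes through 9 relations of Fabp6, on log2 values of the 6 libraries. The genes and lists in them were chosen with earlier results of these data known, so the adjusted p-values of these relations are descriptive. Slc51b followed Fabp6 most closely, with Pearson r = 0.985 (exact permutation p = 0.00139, the smallest that 6 libraries allow, adjusted p = 0.0125) and Spearman rho = 1 (exact permutation p = 0.00278, adjusted p = 0.025). For Slc51a, r was 0.917 (exact permutation p = 0.0125, adjusted p = 0.0458) and rho 0.886 (p = 0.0333, adjusted p = 0.131). Without the 2 libraries farthest from the median of Fabp6, wild-type replicates 1 and 3, r was 0.992 for Slc51b and 0.940 for Slc51a. The 4 libraries left are wild-type replicate 2 and 3 knockout libraries within 1.10 times of each other in Fabp6, so these and the other r values over them depend mainly on wild-type replicate 2. With group means removed r over all 6 was 0.989 for Slc51b and 0.917 for Slc51a. In settings chosen after the data were seen, r for Slc51a was 0.920 after rescaling to the same total (exact permutation test, adjusted p = 0.0667), 0.919 after rescaling without the 50 highest genes (adjusted p = 0.0458) and 0.874 after quantile normalization (adjusted p = 0.121). Its adjusted p thus lay on either side of the threshold while r moved little under both rescalings, and that for Slc51b passed under all 3 scalings. Leaving out wild-type replicate 1 gave r = 0.724 for Slc51a (exact permutation p = 0.125). With 5 libraries the exact permutation p cannot be below 0.00833, which Slc51b had whichever library was left out and which adjusts to 0.075 unless another relation shares it, so adjusted values over 5 libraries say nothing about stability. Slc10a2 gave r = 0.717 (exact permutation p = 0.0736, adjusted p = 0.166; rho = 0.771, p = 0.103; r = 0.867 without the 2 libraries and 0.806 with group means removed). Fgf15 gave r = 0.610 (exact permutation p = 0.247, adjusted p = 0.368; rho = 0.714, p = 0.136; r = 0.961 without them and 0.693 with group means removed). The receptor gene Nr1h4 gave r = 0.161 (exact permutation p = 0.767, adjusted p = 0.767; rho = 0.371, p = 0.497; r = 0.762 without them and 0.183 with group means removed).

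Markers of the small intestinal segments were set beside Fabp6 because crypts came from the whole length. The distal list held Cubn, Amn, Clec2h, Osr2, Nts, Pyy and Plb1, all tested. Its summed FPKM was 317, 512 and 673 in wild type and 404, 424 and 466 in the knockout, with Clec2h the most abundant and no gene at 0. As for Fabp6, wild-type replicate 1 was lowest, replicate 3 highest and the knockout libraries between. The enterocyte and epithelium sums given further on shared these features, but with wild-type replicate 2 below some or all knockout libraries. The mean log2 level of the list gave r = 0.862 with Fabp6 (exact permutation p = 0.0153, adjusted p = 0.0458; rho = 0.829, p = 0.0583, adjusted p = 0.131), r = 0.814 without the 2 libraries farthest from the median and 0.932 with group means removed. For this list r was 0.855 after rescaling to the same total (exact permutation test, adjusted p = 0.0667), 0.852 after rescaling without the 50 highest genes (adjusted p = 0.0458) and 0.792 after quantile normalization (adjusted p = 0.121). Leaving out wild-type replicate 3 gave r = 0.725 (exact permutation p = 0.183). Of its 7 genes 6 were lower and 1 higher in the knockout, with a median log2 fold change of -0.42 beside 0.01 over all genes, and none passed adjustment. All 7 were lower without wild-type replicate 1, with a median of -0.96, and without wild-type replicate 3 there were 5 lower with a median of -0.08.

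The proximal list of 12 genes had sums of 505, 418 and 1344 FPKM in wild type and 1158, 753 and 977 FPKM in the knockout, with Fabp1 the most abundant and no gene at 0. By these sums its order differed from that of Fabp6, since wild-type replicate 2 was lowest. By the mean log2 level, the measure used for r, wild-type replicate 1 was lowest, as for Fabp6. On that level the list still had wild-type replicate 2 below every knockout library, unlike Fabp6. With Fabp6 it gave r = 0.511 (exact permutation p = 0.335, adjusted p = 0.377; rho = 0.314, p = 0.564), with r = -0.75 over the 4 libraries left without the 2 farthest and 0.708 over all 6 with group means removed. Without wild-type replicate 1 alone r was -0.018 (exact permutation p = 0.992). Of the 12 genes 9 were higher and 3 lower in the knockout, with a median of 0.40. For 4 of the 12 the groups did not overlap, each higher in the knockout, beside 11.9% of all tested genes. The enterocyte list of 10 genes, which marks differentiated cells of any segment, had sums of 3471, 5178 and 8990 FPKM in wild type and 7057, 5378 and 8661 FPKM in the knockout. Fabp2 was its most abundant gene and no gene was at 0. It gave r = 0.683 with Fabp6 (exact permutation p = 0.115, adjusted p = 0.208; rho = 0.6, p = 0.242), with r = -0.25 without the same 2 libraries and 0.768 with group means removed. Leaving out wild-type replicate 1 gave r = 0.186 (exact permutation p = 0.767), and leaving out knockout replicate 3 gave r = 0.908 (exact permutation p = 0.0417, adjusted p = 0.0938). All 10 of its genes had positive log2 fold changes, with a median of 0.40, and 9 of 10 after quantile normalization or rescaling without the 50 highest genes. Without wild-type replicate 1 the count was 7 of 10 with a median of 0.18, and without knockout replicate 3 it was 6 of 10 with a median of 0.17. The crypt base list of 8 stem and Paneth cell genes had sums of 18157, 25303 and 49386 FPKM in wild type and 20170, 16988 and 17904 FPKM in the knockout, led by Defa24, with no gene at 0. It gave r = 0.532 with Fabp6 (exact permutation p = 0.286, adjusted p = 0.368; rho = 0.829, p = 0.0583; r = 0.949 without the 2 libraries and 0.809 with group means removed). Leaving out wild-type replicate 1 gave r = 0.802 (exact permutation p = 0.00833, adjusted p = 0.0375), and leaving out wild-type replicate 3 gave r = 0.20 (exact permutation p = 0.667). The adjusted 0.0375 is under the threshold only because Slc51b shared that smallest p, so it says nothing about stability. Of the crypt base genes 3 were higher and 5 lower, with a median of -0.39. After quantile normalization or rescaling without the 50 highest genes 1 was higher and 7 were lower, and without wild-type replicate 3 all 8 were lower with a median of -0.19. The part of these markers in the spread of the bile acid genes was not tested.

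**Figure D3:**
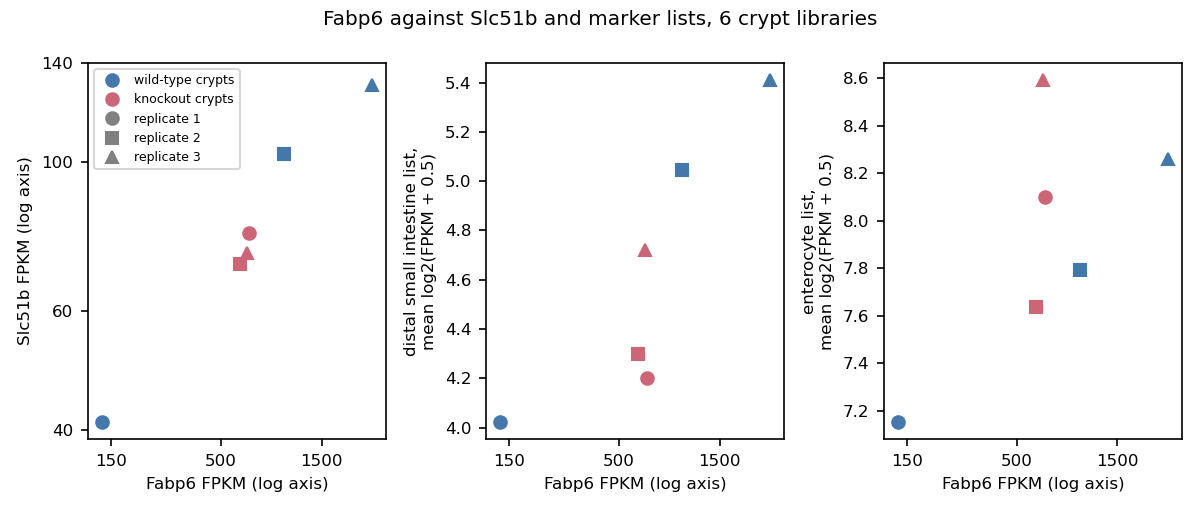
Fabp6 FPKM on a log axis in the 6 crypt libraries against Slc51b FPKM on a log axis (left), the mean log2 level of the distal small intestine list (middle) and that of the enterocyte list (right). Each point is a library, with colour for genotype and shape for replicate number. Slc51b lies close to a line (r = 0.985), the distal list less so (r = 0.862), and the enterocyte list least (r = 0.683). Without knockout replicate 3, r was 0.867 for the distal list and 0.908 for the enterocyte list. Differences between r values were not tested.

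A level relative to the distal list was also computed, a comparison chosen after the data were seen, as the log2 value of a gene minus the mean log2 of the list in the same library. For Slc10a2 this relative level was -0.11, 1.11 and 0.47 in wild type and -0.24, -0.23 and 0.38 in the knockout, a difference of -0.52 (exact permutation p = 0.2). For Fabp6 the difference was 0.30 (exact permutation p = 0.8), for Slc51a 0.37 (p = 0.2) and for Slc51b 0.27 (p = 0.3). For Nr1h4 the difference was -0.42 on the plain scale and -0.00 on the relative scale (exact permutation p = 1), but the SD among wild-type libraries was 0.25 on the plain scale and 0.67 on the relative scale. For Fgf15 the difference was -0.31 (exact permutation p = 0.6). The groups overlapped on this scale for each of the 6 genes. Relative to the epithelium list the differences of the 6 ran from -0.91 to -0.03, again with overlap for each and an exact permutation p of 0.2 or more.

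The genes most like Fabp6 across crypt libraries were named by a rule, the highest r among 3449 genes with a mean of at least 5 FPKM and a highest library at least 1.5 times the lowest. They were Ccs (r = 0.988), Fam110c (0.987), Slc51b (0.985), Mvd (0.982) and Stx3 (0.980). Slc51b thus ranked 3rd, Slc51a ranked 82nd, Slc10a2 561st and Nr1h4 1599th, and 117 of the candidates had r above 0.9. With 6 libraries and this many candidates, high values are frequent. Ccs was at 15.8, 23.7 and 29.4 FPKM in wild type and at 22.5, 22.2 and 20.7 FPKM in the knockout, a far narrower range than that of Fabp6.

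Other genes of bile acid metabolism in crypts were described by list. Of 8 other transporters 4 were tested, 3 higher and 1 lower in the knockout, with a median of 0.24. The most abundant was Abcc2, an apical export pump. With single libraries left out the median of the transporters ran from 0.05 without wild-type replicate 1 to 0.35 without knockout replicate 2. Of 13 other receptors, partners and regulators 10 were tested, 6 higher and 4 lower, with a median of 0.07 (-0.01 without wild-type replicate 1), led by Hnf4a. Of the receptor pair for FGF15 only Fgfr4 was tested, at -0.15, while its co-receptor gene Klb was below the filter. Of 11 genes of bile acid synthesis, which is chiefly hepatic, 5 were tested, 4 higher and 1 lower, with a median of 0.09. That median ran from 0.03 without wild-type replicate 2 to 0.24 without wild-type replicate 3. Cyp7a1 and Cyp8b1, which define hepatic synthesis, were at 0 in all 6 crypt libraries. All 5 genes of bile acid hydroxylation and sulfation had positive log2 fold changes, with a median of 0.51, led by Cyp3a13. The count was 4 of 5 without wild-type replicate 1, with a median of 0.14, and without knockout replicate 1 it was 4 of 5. The mean log2 level of this list was 4.71, 5.59 and 5.95 in wild type and 6.27, 5.51 and 6.22 in the knockout. That of the enterocyte list was 7.15, 7.79 and 8.26 in wild type and 8.10, 7.64 and 8.59 in the knockout. All 10 enterocyte genes were positive as well, and the part of enterocyte content here was not tested. Of the 5 genes 2, Cyp3a13 and Papss2, had an unadjusted p under 0.05, beside 5.85% of all tested genes, and the same 2 did not overlap, beside 11.9%. Cyp3a13, a cytochrome P450 gene, was at 81.6, 101 and 110 FPKM in wild type and at 132, 123 and 162 FPKM in the knockout (log2 fold change 0.51, limma p = 0.0218, adjusted p = 0.800; exact permutation p = 0.1). Papss2, which makes the sulfate donor, was at 34.3, 56.8 and 48.1 FPKM in wild type and at 87.4, 57.3 and 139 FPKM in the knockout, without overlap although 56.8 and 57.3 nearly met (log2 fold change 0.96, limma p = 0.025, adjusted p = 0.806; exact permutation p = 0.1). No gene of these lists passed adjustment.

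Among the remaining markers in crypts, the epithelium list had 2 of 6 genes higher and a median of -0.03, with 4 of 6 higher without knockout replicate 1 (0.03) or wild-type replicate 3 (0.08). Its sums were 3192, 3993 and 4296 FPKM in wild type and 3459, 4009 and 4060 FPKM in the knockout, led by Krt8. The non-epithelial list summed to 27.0 to 37.0 FPKM, led by Lyz2, with 1 of 7 tested genes higher and a median of -0.28. The hepatocyte list had 1 of 3 tested genes higher and a median of -0.26. It was led by Cps1, which enterocytes also express, at 148 to 274 FPKM, while the hepatocyte marker Alb was at most 0.486 FPKM. Of the colon list 4 of 8 genes were tested, 2 higher and 2 lower, with a median of 0.21, led by Car4. At an unadjusted p under 0.05 in crypts were 2 colon, 2 proximal and 1 each of the distal, enterocyte, crypt base and non-epithelial genes, beside 5.85% of all tested genes.

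In colon tumors the bile acid genes were scarce, and the uptake, binding and export genes were at most at 1.82 FPKM in any library. Levels in the 2 tables were normalised separately, so they are given side by side and were not tested against each other. Of the 4 genes that passed the filter, limma called 0 at an adjusted p under 0.05, as for all genes (0% of 16743). At an unadjusted p under 0.05 there were 2 of 4, Nr1h4 and Slc51b, beside 2421 of all tested genes (14.5%). With voom it was 1 of 4, Nr1h4, beside 2604 genes, and again none passed adjustment. The groups did not overlap for the same 2 of 4, beside 22.1% of all tested genes. Leaving out any 1 library other than knockout replicate 3 brought the count at an unadjusted p under 0.05 to 1, beside 8.36% to 16.5% of all genes. With replicates 1 and 2 of each genotype, which all expressed Y-linked genes, 2 of 4 had an unadjusted p under 0.05, beside 7.26% of all genes, and 2 of 4 did not overlap, beside 40.4%.

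**Figure D4:**
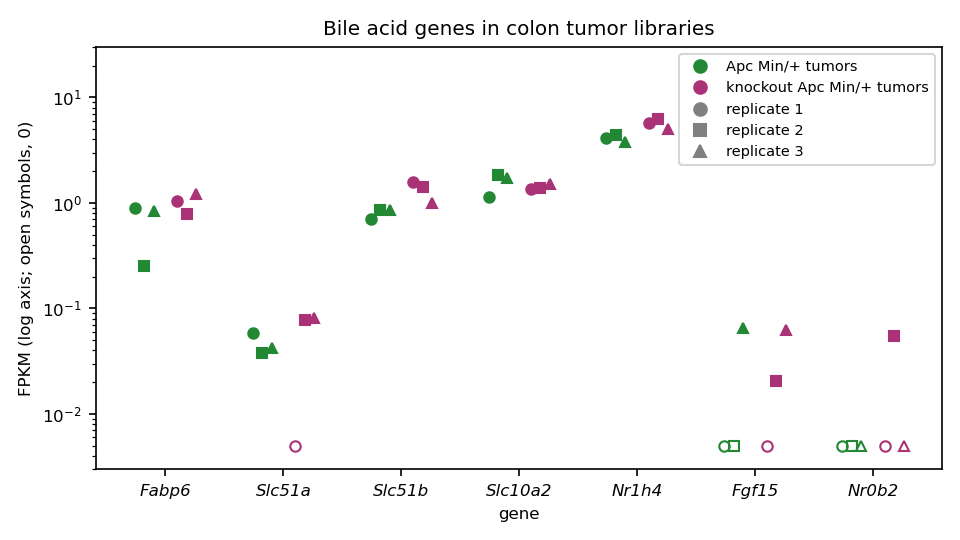
FPKM of the 7 bile acid genes in each colon tumor library, on a log axis, with colour for genotype and symbol shape for replicate number. Open symbols at the bottom stand for libraries at 0. Nr1h4 is the most abundant, with control libraries between 3.77 and 4.39 FPKM and knockout libraries between 4.98 and 6.20.

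Nr1h4 was at 4.16, 4.39 and 3.77 FPKM in the control tumors and at 5.75, 6.20 and 4.98 FPKM in the knockout tumors. Every knockout library was above every control library. Means were 4.11 ± 0.313 and 5.64 ± 0.614 FPKM (SD, n = 3 each). Nr1h4 had a log2 fold change of 0.41 (95% interval 0.13 to 0.70; limma p = 0.0113, adjusted p = 0.285; exact permutation p = 0.1, the smallest that this design allows). The direction was opposite to that in crypts, where every knockout library was the lower, and the difference between tissues was not tested.

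No gene of the epithelium list passed adjustment in tumors, and 2 of 6 had an unadjusted p under 0.05. All 6 were nevertheless without overlap and higher with the knockout, beside 22.1% of all tested genes without overlap, with a median log2 fold change of 0.28 beside 0.01 over all genes. Its sums were 3244, 3138 and 2851 FPKM in controls and 3722, 3683 and 3794 FPKM with the knockout, led by Krt8, with no gene at 0. After quantile normalization 4 of the 6 were higher and 2 lower, with a median of 0.07, while Nr1h4 stayed at 0.42. Relative to the mean log2 of the epithelium list, Nr1h4 was at -6.21, -5.91 and -6.00 in controls and at -5.96, -5.91 and -6.16 with the knockout, and the groups overlapped. The difference on that scale was 0.03 (exact permutation p = 0.8). Relative to the distal list the tumor difference was larger than on the plain scale, 0.57 (exact permutation p = 0.2), also with overlap. In crypts the difference of Nr1h4 relative to the epithelium list was -0.40 (exact permutation p = 0.2), with overlap. The part of epithelial content in the tumor values was not tested.

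Slc51b was at 0.697, 0.855 and 0.849 FPKM in the control tumors, from 8, 10 and 9 fragments, and at 1.58, 1.41 and 0.995 FPKM in the knockout tumors, from 18, 16 and 11 fragments. The groups did not overlap, but knockout replicate 3 lay near the controls, and the counting intervals of all 6 libraries overlapped. For Slc51b the log2 fold change was 0.48 (95% interval 0.03 to 0.93; limma p = 0.0406, adjusted p = 0.336; exact permutation p = 0.1). Relative to the epithelium list the difference was 0.10 (exact permutation p = 0.6), with overlapping groups. Relative to the distal list it was 0.64, without overlap (exact permutation p = 0.1), and the share of all genes without overlap on that scale was not computed. Rasl12, which shares exonic bases with Slc51b, had a mean of 0.452 FPKM in tumors, beside 1.06 for Slc51b.

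Fabp6 was at 0.903, 0.253 and 0.838 FPKM in the control tumors and at 1.04, 0.781 and 1.20 FPKM in the knockout tumors, from at most 9 fragments in any library. The groups overlapped, with a log2 fold change of 0.42 (95% interval -0.28 to 1.11; limma p = 0.196, adjusted p = 0.516; exact permutation p = 0.3). Without control replicate 2 the log2 fold change of Fabp6 was 0.13. Relative to the distal list the groups did not overlap (difference 0.58, exact permutation p = 0.1), and relative to the epithelium list they did (0.03, p = 0.9). The distal list itself, led by Pyy in tumors, had mean log2 levels of 2.52, 2.73 and 2.67 in controls. With the knockout they were 2.42, 2.26 and 2.77. The share of all genes without overlap on this relative scale was not computed, so that separation is a description. Slc10a2 was at 1.15, 1.82 and 1.74 FPKM in controls and at 1.36, 1.40 and 1.51 FPKM with the knockout, within the range of the controls. Its log2 fold change was -0.09 (95% interval -0.52 to 0.34; limma p = 0.636, adjusted p = 0.836; exact permutation p = 0.6), and 0.00246 without control replicate 2. Relative to the epithelium list the difference of Slc10a2 was -0.47 (exact permutation p = 0.3) and relative to the distal list 0.07 (p = 0.7), with overlap in both. Slc51a, the partner of Slc51b, had 3, 2 and 2 fragments in controls and 0, 4 and 4 with the knockout. Fgf15 had 0, 0 and 3 fragments in controls and 0, 1 and 3 with the knockout. Nr0b2 had a single fragment in all, in knockout replicate 2. For these 3 genes no difference was detectable at this depth, at which 3 fragments correspond to 0.0569 to 0.0627 FPKM for Slc51a.

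By mean FPKM in control tumors the order was Nr1h4 at 4.11, Slc10a2 at 1.57, Slc51b at 0.800, Fabp6 at 0.664, Slc51a at 0.0459, Fgf15 at 0.0219 and Nr0b2 at 0. Slc51b and Fabp6 did not differ beyond their spread, nor did Slc51a and Fgf15 or Fgf15 and Nr0b2. Fabp6, which had the highest mean in crypts, was below Nr1h4 and Slc10a2 in every tumor library. The genes most like Nr1h4 across the tumor libraries, by the same rule among 3269 candidates, were Ctgf (r = 0.995), Galnt6 (0.994), Plcb3 (0.982), Alg9 (0.981) and Paqr4 (0.980), and 92 candidates had r above 0.9.

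The wider lists in tumors gave no gene that passed adjustment. Of the other transporters 4 were tested, 2 higher and 2 lower, with a median of -0.01, led by Abcc4. Of the other receptors and regulators 7 of 9 tested genes were higher, with a median of 0.31. Hnf4a was at 72.5, 69.5 and 61.1 FPKM in controls and at 78.9, 102 and 74.8 FPKM with the knockout, without overlap (log2 fold change 0.32, limma p = 0.0581, adjusted p = 0.361; exact permutation p = 0.1). Fgfr4 was at 0.13. Of the synthesis list 1 of 4 tested genes was higher and 3 lower, with a median of -0.05. Cyp27a1, a sterol 27-hydroxylase gene expressed in many tissues, was at 49.8, 59.7 and 68.5 FPKM in controls and at 41.8, 31.0 and 44.8 FPKM with the knockout, without overlap (log2 fold change -0.60, limma p = 0.0121, adjusted p = 0.286; exact permutation p = 0.1). Of the hydroxylation and sulfation list 2 of 3 tested genes were higher, with a median of 0.11 (1 of 3 and -0.00 after quantile normalization), led by Papss2. The genes at an unadjusted p under 0.05 were 1 of 4 transporters, Abcc2 (lower), 1 of 9 receptors and regulators, Nr3c1 (higher), and 2 of 4 synthesis genes, Cyp27a1 (lower) and Amacr (higher), beside 14.5% of all tested genes. Single libraries turned the sign of the small medians, which ran from -0.16 to 0.12 for the transporters (positive without control replicate 3 or knockout replicate 1 or 3), from -0.16 to 0.11 for the synthesis list (positive without control replicate 1 or knockout replicate 3) and from -0.01 without knockout replicate 3 to 0.22 for hydroxylation and sulfation.

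Among the cell and segment markers in tumors, the distal list had 1 of 5 tested genes higher with a median of -0.25, led by Pyy, and the proximal list 4 of 7 with a median of 0.36, led by Onecut2. The enterocyte list had 3 of 5 higher with a median of 0.13, led by Slc5a1, and the crypt base list 4 of 7 with a median of 0.25, led by Lyz1. The colon list had 7 of 8 higher with a median of 0.28, led by Hoxb13. The non-epithelial list had 4 of 8 higher with a median of 0.16, with 5 to 6 of 8 higher when single libraries were left out and 7 of 8 with replicates 1 and 2 of each genotype. The 4 were Col1a1, Col3a1, Pecam1 and Acta2, each with an unadjusted p under 0.05 and all but Col3a1 without overlap, beside 14.5% and 22.1% of all tested genes. Of the other lists in this paragraph 3 proximal and 2 colon genes had such a p. The non-epithelial sums were 909, 645 and 906 FPKM in controls and 880, 1075 and 837 FPKM with the knockout, led by Lyz2. The hepatocyte list had 1 of 4 higher with a median of -0.08, led by Alb at 17.3 to 67.8 FPKM. With single libraries left out, the proximal median was -0.06 without knockout replicate 2, with 3 of 7 higher, and the enterocyte median was -0.01 without control replicate 2 and -0.03 without knockout replicate 2. The hepatocyte list had 0 to 3 of 4 higher, with a median positive without replicate 1 or 2 of either genotype (0.06 to 0.17). The medians of the other 4 lists did not change sign. The part of these lists in the values of the bile acid genes was not tested.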

How the data were processed

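Bulk RNA-seq of 12 libraries was analysed from FPKM values that the authors deposited in a separate table for each tissue, with replicates not pooled. The study's methods name Hisat2 and featureCounts, and the submitters' processing notes name cutadapt, HISAT2, Cufflinks 2.2.1, DESeq2 and build mm10; which tool gave the FPKM and whether counting used the strand are not given in the sources used here. Fragments were recovered as FPKM times gene length in units of the smallest increment of each library, and 100% of nonzero values came out whole within 0.05. Depth was 14457896 to 16156712 fragments on genes, and intervals and floors of 3 fragments cover counting error only.

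Libraries were grouped by genotype from the labels. Knockout and control were compared within each table on log2(FPKM + 0.5) in limma 3.58.1 (R 4.3.3), allowing a variance trend and keeping genes that averaged 0.5 FPKM or more, with Benjamini-Hochberg adjustment over all of them and a threshold of 0.05. Single values were compared with exact two-sided permutation tests. The procedure was tested on simulated data, but the outcome is not given here and no result rests on it. Alternatives were pseudocounts of 0.1 and 1, no filter or a mean of at least 1, 3 scalings, 2 variance models, voom, the replicate number as a block, and each library left out in turn.

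All 7 bile acid genes were named whatever their values, with genes of 13 further lists, the 5 genes most like the most abundant bile acid gene of each table, and neighbours sharing exons. Hoxd13, Papss2, Cyp3a13, Hnf4a, Cyp27a1, Abcc2, Nr3c1, Amacr, Col1a1, Col3a1, Pecam1 and Acta2 were singled out within the lists after their values were seen. Ctnnb1, as the target, and Xist, as a check of sex, were named outside that rule. The members and lists were chosen with earlier results of these data known. Levels relative to marker lists, 20 comparisons in all, were added after the data were seen. Gene positions of all 7 are the same in GENCODE M21. Promoter sequences are from RefSeq, GRCm38.p6, and 6 of the 7 genes matched.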

Additional observations from a re-analysis of the deposited data

Results flagged for a closer look

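Nr1h4, which encodes FXR, did not overlap between genotypes in either tissue, with opposite directions. Of all tested genes 11.9% in crypts and 22.1% in tumors did not overlap. The log2 fold change, knockout minus control, was -0.42 in crypts, where all 3 knockout libraries were lower, and 0.41 in colon tumors, where all 3 were higher. With single libraries left out it ran from -0.54 to -0.28 in crypts and from 0.35 to 0.49 in tumors. The tables were normalised separately, and the difference between the tissues was not tested. Neither value passed adjustment (limma adjusted p = 0.849 and 0.285), and over all alternatives the adjusted p ran from 0.523 to 0.999895 in crypts and from 0.251 to 0.680 in tumors. The sign was the same under all 17 alternatives in crypts and all 18 in tumors, but the crypt groups overlapped after rescaling to the same total. Relative to the distal list the crypt difference was -0.00 (exact permutation p = 1), and relative to the epithelium list the tumor difference was 0.03 (exact permutation p = 0.8), with overlapping groups in both. The relative scale had a wider spread, with a control SD of 0.67 instead of 0.25 in crypts and 0.15 instead of 0.10 in tumors. The other list left larger differences, -0.40 relative to the epithelium list in crypts and 0.57 relative to the distal list in tumors (exact permutation p = 0.2 for each), also with overlap. The part of these markers in the result was not tested.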

How the results depend on the processing

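No bile acid gene passed adjustment in either tissue under any setting tried, and all scalings moved the median of all genes by less than 0.1. With no variance trend 1 tumor gene was called, and without crypt wild-type replicate 3 the count of called crypt genes was 3; each library left out in turn gave 0 to 3 in crypts. The count of bile acid genes at an unadjusted p under 0.05 in crypts was 0 and became 1 with quantile normalization, rescaling without the 50 highest genes, or voom, in each case Nr1h4, beside 4.94% to 5.66% of all genes. Leaving out single libraries gave 0 to 6, beside 3.22% to 9.46% of all genes, with 6 only without wild-type replicate 1 and 1 without knockout replicate 2. Groups without overlap numbered 0 in crypts after rescaling to the same total, beside 10.7% of all genes, and 1 to 6 when single libraries were left out, beside 18.0% to 28.1%, with 6 only without wild-type replicate 1. In both counts the 6 include Fgf15, which passed the filter only through wild type. In tumors the count at an unadjusted p under 0.05 was 2 and became 1 with no filter, a minimum mean of 1, voom, and rescaling either to the same total or without the 50 highest genes, beside 9.91% to 15.6% of all genes. It was 1 to 2 when single libraries were left out, beside 8.36% to 16.5%, with 2 only without knockout replicate 3. The cause was not tested.

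Fabp6 in crypts turned positive with quantile normalization (0.0926) and without wild-type replicate 2 (0.13) or 3 (0.83). Slc51a did so without wild-type replicate 2 (0.22), 3 (0.18) or knockout replicate 2 (0.01), and Slc51b without wild-type replicate 2 (0.01) or 3 (0.18). Without wild-type replicate 1 the values were -1.31, -0.56 and -0.64. Slc10a2 in tumors ran from -0.247 to 0.00246 with single libraries left out, positive only without control replicate 2. The r of Fabp6 with the crypt base list was -0.0556 after quantile normalization, 0.802 without wild-type replicate 1 and 0.20 without wild-type replicate 3. For 0.802 the exact permutation p adjusted to 0.0375 only because Slc51b shared the smallest p of 5 libraries. The r with the proximal list ran from -0.018 without wild-type replicate 1 to 0.735 without wild-type replicate 2. For Slc51a and the distal list r was 0.920 and 0.855 after rescaling to the same total (adjusted p = 0.0667 for each), 0.919 and 0.852 after rescaling without the 50 highest genes (0.0458) and 0.874 and 0.792 after quantile normalization (0.121), all by exact permutation. For Slc51b r was 0.932 to 0.997 over all settings; these settings of r, the residual SD with libraries left out and the replicate 1 and 2 comparison in tumors were chosen after seeing the data.

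Libraries with the same replicate number showed little shared deviation over all tested genes. The correlations were -0.05, -0.12 and 0.04 in crypts and 0.05, -0.09 and 0.05 in tumors. Deviations from a mean of 3 libraries are tied to each other, so these values cannot decide whether the numbers pair libraries. Tumor replicate 3 of both genotypes nevertheless shared Xist expression, at 114 and 61.4 FPKM. With the number as a block, 0 genes were called in either tissue, and 1 bile acid gene in crypts and 1 in tumors had an unadjusted p under 0.05, beside 5.16% and 11.2% of all genes. Of genes at an unadjusted p under 0.05, 494 were higher and 335 lower in crypts, and 298 and 504 after rescaling without the 50 highest genes; in tumors the numbers were 1417 and 1004, and 1079 and 1340. Depth limits Nr0b2 in both tissues, and Fgf15 and the binding and export genes in tumors. In crypts Fgf15 had few fragments, 9 in wild-type replicate 1 and 103 in wild-type replicate 2, but the counting intervals of these libraries did not overlap.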
